A study of Mus musculus with 2 samples.

Results

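Neuroblasts are the migrating, still immature neurons that adult stem cells produce, and here they were barcodes chosen by their measured levels of Dcx, Dlx1, Dlx2, Dlx6os1, Sox11 and Igfbpl1 RNA. A barcode was taken when these 6 genes together had at least 5 UMIs (counted RNA molecules) and at least 0.15% of all its UMIs. It also needed at least 1000 UMIs, 500 genes and at most 20% mitochondrial UMIs, and under 1% of UMIs from the melanoma genes Pmel, Mlana, Tyrp1 and Dct. The rule found 205 barcodes among the 27740 kept. There were 99 of 13745 in the metastasis library, or 0.720% (95% interval 0.586 to 0.876), and 106 of 13995 in the naive library, or 0.757% (0.621 to 0.915). The intervals overlap widely.

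Both libraries came from C57BL/6J mice 10 weeks old. The metastasis library was a pool of 3 brains injected intracranially with B16/F10-BrM, a melanoma line that grows in the brain, and the naive library was a pool of 3 brains that its title calls naive. Both were enriched with beads against ACSA-2, a surface antigen of astrocytes, so the share of neuroblasts depends on what that enrichment let through. With 1 library a group the spread between animals is unknown, so nothing was tested. All intervals are exact, at 95%, and cover counting error only. For ratios, UMIs were taken as independent, and the spread between cells was left out. A log2 ratio is that of metastasis over naive unless another is named.

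In the adult mouse brain, stem cells beside the lateral ventricles give rise to dividing progenitors and then to neuroblasts, which migrate to the olfactory bulb and become GABAergic interneurons. Dlx homeodomain factors mark that lineage. A separate lineage in the hippocampal dentate gyrus passes through Eomes and the Neurog and Neurod factors and makes glutamatergic granule neurons. Dcx binds microtubules in migrating neurons, Sox11 is a transcription factor of newborn neurons, and Igfbpl1 is a secreted protein used as a marker of early neuroblasts.

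After the series was released its submitters swapped the 2 sample titles, and the present titles define the groups here. The 4 melanoma genes of the rule made up 0.803% of the UMIs of the other kept barcodes in metastasis and 0.0261% in naive. In all, 89193669 UMIs were counted for metastasis and 69445557 for naive. They shared 53 kept barcodes, none of them a neuroblast in both libraries. Free RNA, the RNA of barcodes with 10 to 100 UMIs, differed between the libraries: the choroid plexus marker list was 8.33% of it in metastasis and 22.6% in naive. Among neuroblasts the choroid plexus gene Ttr had 1849 UMIs in metastasis and 12722 UMIs in naive. A single naive neuroblast, the deepest at 16869 UMIs, held 4527 of the naive Ttr UMIs, and 8195 UMIs were left without it.

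The neuroblasts were deeper than the barcodes around them. The rule's minimum of 5 UMIs favours deep barcodes, so this comparison was in part fixed by the choice of cells. Metastasis neuroblasts had a median of 4028 UMIs (1093 to 8606) and 2192 genes, against 2853 UMIs and 1523 genes in the other kept barcodes. Naive neuroblasts had a median of 3692.5 UMIs (1003 to 16869) and 1995 genes, against 2818 UMIs and 1494 genes. Median mitochondrial shares were 1.85% in metastasis neuroblasts and 2.08% in naive neuroblasts. In sum the metastasis neuroblasts held 417254 UMIs and the naive neuroblasts 452778 UMIs.

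The 6 genes of the rule chose the cells, so their levels are a description only. Sox11 had UMIs in 100% of metastasis neuroblasts and 96.2% of naive neuroblasts. Igfbpl1 was seen in 63.6% of metastasis and 71.7% of naive neuroblasts. Dlx1 was seen in 55.6% and Dlx2 in 52.5% of metastasis neuroblasts, against 56.6% and 51.9% of naive neuroblasts. The antisense transcript Dlx6os1 was seen in 26.3% of metastasis and 30.2% of naive neuroblasts.

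Dcx, the gene most often used to name these cells, had no UMI in 58 of 99 metastasis neuroblasts, or 58.6% (48.2 to 68.4), and in 44 of 106 naive neuroblasts, or 41.5% (32.0 to 51.5). Its summed level was 213 CPM (UMIs of the gene per 1000000 UMIs) in metastasis neuroblasts and 225 CPM in naive neuroblasts, a log2 ratio of -0.08 (-0.51 to 0.35). Dcx UMIs were spread over fewer metastasis cells at a near-equal sum. After each cell was thinned to 1000 UMIs, Dcx was seen in 19.2% (11.97 to 28.3) of metastasis and 27.4% (19.1 to 36.9) of naive neuroblasts, and these intervals overlap. Among oligodendrocytes, which should lack the gene, 0.451% in metastasis and 0.412% in naive had a Dcx UMI, at median depths of 2825 and 3060 UMIs.

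The rule's UMIs per cell ran from 5 to 52 with a median of 14 in metastasis, and from 5 to 61 with a median of 13.5 in naive. Close to the limit, 17 metastasis and 22 naive neuroblasts had 0.15% to 0.20% of their UMIs from the 6 genes, and 9 metastasis and 13 naive barcodes with at least 5 such UMIs lay just outside it, at 0.10% to 0.15%. The highest barcode outside had 0.148% in metastasis and 0.143% in naive. The percentage limit left out 356 barcodes in metastasis and 26 in naive that had at least 5 rule UMIs. Sox11 itself was at 58.2 CPM in the other kept barcodes of metastasis and at 16.6 CPM in those of naive.

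The label was checked against genes outside the rule. Of the 20 genes highest over the other kept barcodes, 17 are described here, and many of them are known from neuronal progenitors or young neurons. Insm1, a zinc-finger factor of intermediate progenitors, was at 362 CPM in metastasis neuroblasts and 1.85 CPM in the other kept barcodes, and at 322 CPM in naive neuroblasts and 2.28 CPM in the others. Stmn2, a tubulin-binding protein of growing axons, was at 326 CPM against 2.56 CPM in metastasis and at 371 CPM against 4.61 CPM in naive.

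The other 15 were Elavl4 and Elavl2, RNA-binding proteins of neurons; Dpysl3, Stmn3 and Tubb2b of the cytoskeleton; the cyclin Ccnd2; the transcription regulators Bcl11a, Tox3, Sox4 and Hes6; the linker histones H1f10 and H1f5; and Cdca7, Mfap2 and Ttc9b. Over these 17 genes, the log2 ratio of neuroblasts over other kept barcodes ran from 3.63 to 5.03, the lower and the higher library included. Because the rule chose the cells, these values carry no test. Of 6985 genes with at least 20 UMIs over both libraries, 1159 (16.6%) were at least 2-fold higher in neuroblasts than in the other kept barcodes of both libraries. By list, this held for 19 of 22 pan-neuroblast and young neuron genes, 8 of 13 interneuron lineage factors, 9 of 18 microtubule and growth cone genes, and 21 of 22 proliferation genes.

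Between the libraries these 17 genes differed little. Their log2 ratios ran from -0.27 for Mfap2 (153 CPM in metastasis neuroblasts and 186 CPM in naive neuroblasts) to 0.37 for Elavl4 (393 CPM and 305 CPM), and 2 of 17 intervals left out 0. Mfap2 is a microfibril protein of the extracellular matrix. Across all 6985 genes, 8.17% of intervals left out 0 and the median log2 ratio was 0.04.

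Stretches of the start regions of leading and rule genes are shown because basic helix-loop-helix factors such as the Neurod family bind E-boxes, and Dlx proteins are homeodomain factors that bind sites with a TAAT core. The 250 bases before each start in RefSeq (GRCm38.p6) were searched for CAGCTG and TAATTA, each of which reads the same on both strands. Each line below gives 30 bases, 5′ to 3′ on the gene's strand (minus in all cases), with the motif in capitals.
Elavl4, chr4:110287556-110287585: agagtctggcttCAGCTGacagatggtccc
Hes6, chr1:91413355-91413384: gctccgccccgcCAGCTGccagagacccgc
Sox4, chr13:28953893-28953922: cagcagaaatctCAGCTGtacttctagccc
Tox3, chr8:90348453-90348482: cgggcggcgcgcCAGCTGcccgcggtggga
Sox11, chr12:27342911-27342940: gggggacacgcgCAGCTGtgcgcactcgcg
Dcx, chrX:143933241-143933270: aaaaaaagcatgTAATTAatcataggaggt
Dlx6os1, chr6:6869590-6869619: gaaaaattactcTAATTAtggctgcattta

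CAGCTG was in 27.3% of the 22 windows of the 12 leading genes with an entry, those of Elavl4, Hes6, Sox4 and Tox3, and in 13.0% of all 32851 windows. TAATTA was in 4 of the 7 windows of the 5 rule genes with an entry, those of Dcx and Dlx6os1, and in 4.84% of all windows. The other pairings were closer to all windows: CAGCTG was in 1 of the 7 rule gene windows, or 14.3%, and TAATTA in 2 of the 22 leading gene windows, or 9.09%, both of them of Elavl4. Windows of alternative starts of a gene can overlap, as those of Dcx do, so they are not independent. A match is a description of the letters and no binding was measured.

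The neuroblasts were divided into groups by genes of lineage and of division. The groups were defined after these values had been seen, and they describe RNA levels rather than sorted cells. A cell counted as dividing with at least 0.2% of its UMIs from 22 proliferation genes such as Mki67 and Top2a. The largest group was Dlx-positive, with at least 1 UMI of Dlx1, Dlx2 or Dlx6os1 and without the Eomes and Neurod signal. It held 66 of 99 metastasis neuroblasts and 69 of 106 naive neuroblasts.

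Among these Dlx-positive cells, 39 of 66 were dividing in metastasis, or 59.1% (46.3 to 71.0), and 33 of 69 in naive, or 47.8% (35.6 to 60.2). The intervals overlap. The dividing cells were 39.4% (29.7 to 49.7) of all metastasis neuroblasts and 31.1% (22.5 to 40.9) of all naive neuroblasts. Those not dividing were 27.3% (18.8 to 37.1) in metastasis and 34.0% (25.04 to 43.8) in naive. Depth differed between these groups, with medians of 4626 UMIs in dividing and 3198 UMIs in non-dividing cells of metastasis, and 4749 and 2107.5 UMIs in naive.

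**Figure D1:**
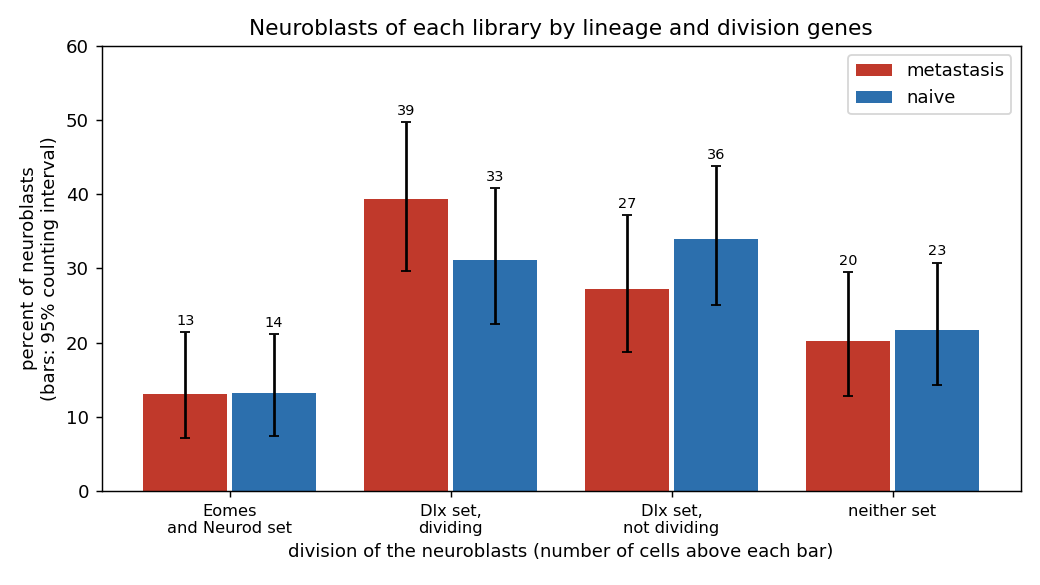
Percent of neuroblasts in each group (bars) with 95% counting intervals, in the metastasis (red, left) and naive (blue, right) libraries, with the number of cells above each bar. The intervals of the libraries overlap in all 4 groups.

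Within the Dlx-positive cells, several progenitor genes were higher in the dividing cells and several genes of young neurons higher in the others, in both libraries. Genes with at least 20 UMIs in each library were counted over whole lists. Of 9 stem cell and transit-amplifying genes, 8 were higher in dividing cells of both libraries and 1 lower in both. Of 20 pan-neuroblast and young neuron genes, 3 were higher and 12 lower in both, and of all 2552 genes 1019 were higher and 633 lower in both. The genes named here were chosen after their values were seen. Insm1 was at 497 CPM in dividing and 129 CPM in non-dividing cells of metastasis, a log2 ratio of dividing over non-dividing of 1.95 (1.10 to 2.91). In naive it was at 352 CPM in dividing and 115 CPM in non-dividing cells, a log2 ratio of 1.61 (0.71 to 2.64). Hes6, a Hes-family factor of differentiating progenitors, had 1.55 (0.82 to 2.36) in metastasis and 0.86 (0.07 to 1.71) in naive.

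Genes of glia-like progenitors were mixed. Fabp7, a fatty-acid-binding protein of radial glia, was higher in dividing cells by a log2 ratio of 1.14 (0.57 to 1.74) in metastasis and 1.74 (1.19 to 2.34) in naive. Ptprz1, a receptor phosphatase of progenitors, was higher by 1.08 (0.61 to 1.58) in metastasis and 0.65 (0.20 to 1.11) in naive. Slc1a3 did not follow, with -0.14 (-0.86 to 0.60) in metastasis and -0.22 (-0.87 to 0.45) in naive. Hes5, a Notch target of stem cells, had -1.03 (-2.36 to 0.27) in metastasis and 0.68 (-0.87 to 2.51) in naive, on few UMIs.

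Stmn2 was at 190 CPM in dividing and 734 CPM in non-dividing cells of metastasis, a log2 ratio of -1.95 (-2.56 to -1.35). In naive it was at 193 CPM in dividing and 1210 CPM in non-dividing cells, a log2 ratio of -2.65 (-3.24 to -2.10). Tubb3, the neuronal beta-tubulin, had log2 ratios of -1.14 (-1.67 to -0.61) in metastasis and -2.0 (-2.53 to -1.48) in naive. The presynaptic adhesion gene Nrxn3 had -1.76 (-2.44 to -1.10) in metastasis and -1.24 (-1.86 to -0.64) in naive. The TALE homeodomain factor Meis2 was also lower in dividing cells, with log2 ratios of -0.76 (-1.21 to -0.31) in metastasis and -1.26 (-1.68 to -0.86) in naive. Other genes of young neurons did not separate this way. Elavl4 had -0.09 (-0.64 to 0.49) in metastasis and 0.02 (-0.64 to 0.71) in naive. Dpysl3 had 0.19 (-0.36 to 0.77) in metastasis and -0.46 (-0.97 to 0.05) in naive, and Map2, a dendritic microtubule protein, 0.21 (-0.31 to 0.75) and -0.52 (-1.11 to 0.07).

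Gad1, an enzyme that makes GABA, had 1 UMI in dividing and 14 UMIs in non-dividing cells of metastasis, a log2 ratio of -4.72 (-10.12 to -2.0). In naive it had 2 UMIs in dividing and 12 UMIs in non-dividing cells, a log2 ratio of -3.39 (-6.59 to -1.22). Gad2, the other such enzyme, did not show this clearly in metastasis. Relative to all UMIs of the cells, dividing ones were at 84.5 CPM there (16 UMIs) and non-dividing ones at 99.2 CPM (10 UMIs). The interval around that log2 value of -0.23 held both signs (-1.46 to 1.07). For naive cells Gad2 was lower with division, at 66.0 CPM (12 UMIs) against 211 CPM (22 UMIs), or -1.68 (-2.83 to -0.60). Sox2, a stem-cell factor, and Ccnd2 differed little with division, with log2 ratios of 0.15 and 0.17 in metastasis and 0.24 and 0.09 in naive.

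**Figure D2:**
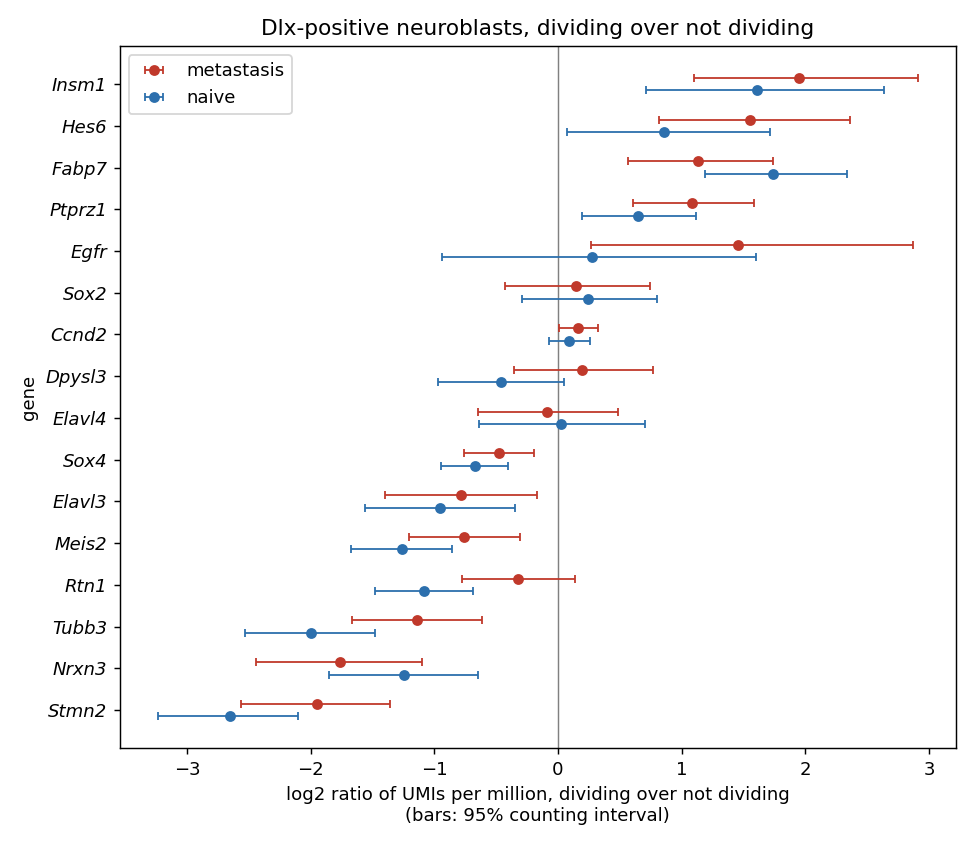
Log2 ratio of CPM, dividing over non-dividing Dlx-positive neuroblasts, with 95% counting intervals (bars), in metastasis (red) and naive (blue). Insm1, Hes6, Fabp7 and Ptprz1 lie right of 0 in both libraries, and Tubb3, Nrxn3 and Stmn2 lie left of 0 in both.

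Late markers of olfactory bulb interneurons were scarce. Th, the dopamine-synthesis enzyme of some of these neurons, had no UMI in neuroblasts of either library. The calcium-binding gene Calb2 was seen in 3 metastasis neuroblasts, or 3.03% (0.629 to 8.60), and in 1 naive neuroblast, or 0.943% (0.0239 to 5.14). Of the metastasis cells, 2 had the Eomes and Neurod signal and 1 was a dividing Dlx-positive cell, as was the naive cell. The share of oligodendrocytes with Th or Calb2 was 0.260% in metastasis and 0.231% in naive. Rbfox3, a nuclear protein of mature neurons, was seen in 8.08% of metastasis and 8.49% of naive neuroblasts, against 0.0521% and 0.132% of oligodendrocytes. Gad1 or Gad2 was seen in 18.2% (11.1 to 27.2) of metastasis and 23.6% (15.9 to 32.8) of naive neuroblasts.

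Among the 13 interneuron lineage factors with at least 20 UMIs, 1 was at least 2-fold higher in metastasis neuroblasts and none at least 2-fold lower, against 2.85% and 2.81% of all tested genes. That gene was Dlx5, a homeodomain factor downstream of Dlx1 and Dlx2, with 26 UMIs in metastasis and 13 UMIs in naive, or a log2 ratio of 1.12 (0.11 to 2.20). Meis2, another factor on the list, had 585 CPM in metastasis neuroblasts and 647 CPM in naive ones. Whether the authors counted by strand was not given in the sources used here, and without strand the reads of Dlx6 (GRCm38 chr6:6863334-6868568) and Dlx6os1 (chr6:6820189-6871592, on the opposite strand) cannot be told apart. The same holds for Dlx1 and its antisense gene.

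A smaller group carried Eomes, Neurog and Neurod genes. Where in the brain these cells lay was not measured. At least 2 UMIs of Eomes, Neurog2, Neurod1, Neurod2, Neurod6 and Tbr1 were found in 13 metastasis neuroblasts, or 13.1% (7.18 to 21.4), and 14 naive neuroblasts, or 13.2% (7.41 to 21.2). In oligodendrocytes this was met by 0 of 5762 cells in metastasis, which allows a share of up to 0.0640%, and 1 of 6071 cells in naive. Igfbpl1 was seen in 13 of 13 of these cells in metastasis and 13 of 14 in naive. Its summed level in these cells was 2013 CPM in metastasis and 1132 CPM in naive, beside 671 CPM and 621 CPM over all neuroblasts, this group included. Igfbpl1 is a gene of the rule, and cells without a Dlx UMI meet the rule only through Sox11, Dcx and Igfbpl1. Its values in this group are therefore a description only.

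Cells of this group had different counts of division and stage genes in the libraries, with wide and overlapping intervals. In metastasis 4 of 13 were dividing, or 30.8% (9.09 to 61.4), and in naive 11 of 14, or 78.6% (49.2 to 95.3). Neurod1, a factor of late glutamatergic progenitors, had 23 UMIs in 9 metastasis cells and 4 UMIs in 4 naive cells. Neurog2, an earlier proneural factor, had 11 UMIs in metastasis and 21 UMIs in naive. Eomes had 33 UMIs in metastasis and 29 UMIs in naive.

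Later and earlier genes were also uneven. Stmn2 had 23 UMIs in 5 metastasis cells and 1 UMI in naive. Ptprz1 had 7 UMIs in metastasis against 56 UMIs in naive, and Fabp7 had 9 and 42 UMIs. A Dlx gene was seen in 0 of 13 of these cells in metastasis and 5 of 14 in naive. With 13 and 14 cells from pooled brains, the number of animals behind each value is unknown.

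Over all neuroblasts, Neurod1 had a log2 ratio of 2.64 (1.09 to 4.63) and was the only 1 of the 4 measured genes of the glutamatergic list at least 2-fold higher in metastasis, with none at least 2-fold lower. Prox1, a factor of granule neurons that other young neurons also express, had 127 CPM in metastasis neuroblasts and 90.6 CPM in naive neuroblasts. Cells with the Eomes and Neurod signal held 9 of its UMIs in metastasis and 7 in naive. Dividing and non-dividing Dlx-positive cells held 23 and 13 in metastasis, and 11 and 19 in naive. Relative to all UMIs of these cells, the log2 ratio of dividing over non-dividing for Prox1 was -0.09 (-1.13 to 1.02) in metastasis. In naive it was -1.59 (-2.81 to -0.45). The glutamatergic list's median log2 ratio was 0.49, beside 0.04 over all tested genes, of which 2.85% were at least 2-fold higher and 2.81% lower.

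A further group had no UMI of the Dlx genes and fewer than 2 UMIs of the Eomes and Neurod set. It held 20 metastasis neuroblasts, or 20.2% (12.8 to 29.5), and 23 naive neuroblasts, or 21.7% (14.3 to 30.8). Many of these met the rule through Sox11, which was the only rule gene seen in 15 of the 20 metastasis cells and 11 of the 23 naive cells. Stmn2 was seen in 1 cell of the group in each library. Of the group, 9 of 20 metastasis cells, or 45.0% (23.1 to 68.5), and 9 of 23 naive cells, or 39.1% (19.7 to 61.5), were dividing.

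These cells also had progenitor and glial genes. Egfr, the growth factor receptor of activated stem cells and their dividing progeny, was seen in 12 of 20 metastasis and 14 of 23 naive cells. Slc1a3, a glutamate transporter of astrocytes and stem cells, was seen in 15 of 20 metastasis and 17 of 23 naive cells. Olig2, a factor of progenitors and oligodendrocyte precursors, was seen in 8 cells of each library. Dcx was seen in 3 of 20 metastasis and 8 of 23 naive cells, so the neuroblast label rests on few of its own markers here.

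Of 15 measured stem cell and transit-amplifying genes, 1 was at least 2-fold higher in metastasis neuroblasts and none lower (all genes 2.85% and 2.81%). It was Gsx2, a homeodomain factor of ventricular progenitors, with 20 UMIs in 17.2% of metastasis cells and 8 UMIs in 5.66% of naive cells, a log2 ratio of 1.44 (0.19 to 2.83). Pax6, a progenitor factor that also acts in olfactory neurogenesis, was among the 12 lowest of the 1302 named genes that had 100 UMIs or more and exceeded free RNA, with 156 CPM in metastasis neuroblasts and 230 CPM in naive ones, a log2 ratio of -0.56 (-1.03 to -0.10). Sox2 was at 398 CPM in metastasis neuroblasts and 510 CPM in naive ones, a log2 ratio of -0.36 (-0.66 to -0.06).

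Division was common in both libraries. At least 2 UMIs of the proliferation list were seen in 67 of 99 metastasis neuroblasts, or 67.7% (57.5 to 76.7), and 68 of 106 naive neuroblasts, or 64.2% (54.3 to 73.2). After thinning to 1000 UMIs, which left out no neuroblast, the shares were 55.6% (45.2 to 65.5) in metastasis and 50.9% (41.0 to 60.8) in naive. Oligodendrocytes had 0.902% in metastasis and 0.0329% in naive after the same thinning, and 5.76% and 0.906% before it. The difference between neuroblasts of the libraries lies within the intervals.

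Proliferation UMIs were 0.782% of all neuroblast UMIs in metastasis and 0.663% in naive, a log2 ratio of the sums of 0.24 (0.17 to 0.31). They ran from 0 to 223 a cell in metastasis and from 0 to 201 in naive, a spread that the interval leaves out. Of 22 genes, 19 had a log2 ratio above 0 and none reached 2-fold, and the median was 0.23 beside 0.04 over all tested genes. Top2a, a topoisomerase of dividing cells, was at 1057 CPM in metastasis neuroblasts and 936 CPM in naive ones. Cenpa, the centromere histone, was at 427 CPM and 252 CPM, a log2 ratio of 0.76 (0.41 to 1.11). The same list was 0.153% of free RNA in metastasis and 0.0111% in naive, and 0.181% and 0.0124% of the other kept barcodes, and the part of that in the neuroblast values was not tested.

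Few genes differed strongly between the libraries. In metastasis neuroblasts, 199 of 6985 tested genes (2.85%) were at least 2-fold higher and 196 (2.81%) at least 2-fold lower. These were mostly sparse genes, with medians of 30 and 27 UMIs over both libraries beside 50 UMIs over all tested genes. At a minimum of 100 UMIs and above the level of free RNA, 1302 named genes remained, and none of the 12 highest or 12 lowest of them reached 2-fold in the summed counts. With each barcode weighted equally, 5 of these 24 did, namely Gatad2a at a log2 ratio of 1.27, Lsm12 at 1.04, Mzt1 at 1.03, Btg1 at -1.10 and Ptbp2 at -1.08. The lists of highest and lowest are extremes of many genes, so their intervals leave out 0 by choice.

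The 12 highest were led by Gatad2a, a subunit of the NuRD chromatin complex, at 158 CPM in metastasis neuroblasts and 79.5 CPM in naive neuroblasts, a log2 ratio of 0.99 (0.39 to 1.62). Ccnd1, a cyclin of the G1 phase, was at 197 CPM in metastasis neuroblasts and 102 CPM in naive ones, a log2 ratio of 0.95 (0.41 to 1.51). Ccnd1 was also higher in free RNA, at 77.9 CPM in metastasis against 3.68 CPM in naive. With free RNA subtracted its log2 ratio was 0.80, and 0.87 with free RNA measured at 100 to 300 UMIs, but on the 18 UMIs left under a stricter rule (10 UMIs and 0.30% from the 6 genes) it was -1.04 (-2.74 to 0.48). Cenpa was in this set as well. The rest were Lsm12, the RNA-binding genes Hnrnpm, Tnrc6a and Fmr1, the spindle gene Mzt1, Bod1l, the ubiquitin-conjugating Ube2r2, the histone deacetylase cofactor Sap30, and Rwdd1.

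The 12 lowest were led by Ptbp2, a splicing regulator of young neurons, at 113 CPM in metastasis neuroblasts and 186 CPM in naive neuroblasts, a log2 ratio of -0.72 (-1.27 to -0.19). Under the stricter rule it was -0.09 (-0.86 to 0.68). Btg1, an antiproliferative gene, was at 211 CPM in metastasis neuroblasts and 331 CPM in naive ones, a log2 ratio of -0.65 (-1.05 to -0.26). Pou3f4, a POU-domain factor of neural progenitors, was at 141 CPM and 214 CPM, a log2 ratio of -0.60 (-1.09 to -0.12). Also in this set were Cox7c, Plpp3, Jund, Timm50, Wbp11, Atad2, Pax6, H2ac8 and Cpe.

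The neuronal programme itself was near level between the libraries. Of 22 pan-neuroblast and young neuron genes, none was at least 2-fold higher or lower, 11 had log2 ratios above 0, and the median was -0.02. Their summed share was 1.54% of UMIs in metastasis neuroblasts and 1.51% in naive neuroblasts, a log2 ratio of 0.03 (-0.02 to 0.08). Stmn1, a regulator of microtubules, was at 4086 CPM in metastasis neuroblasts and 3973 CPM in naive ones. Of 18 microtubule and growth cone genes, none passed 2-fold, and the median was 0.06. Tubb5 was at 2965 CPM in metastasis neuroblasts and 2898 CPM in naive ones, and Map2 at 453 CPM and 329 CPM, a log2 ratio of 0.46 (0.14 to 0.78).

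Receptors for migration were measured in 14 of 22 cases, with 1 gene at least 2-fold higher, 1 at least 2-fold lower and a median of -0.07. Of all tested genes 2.85% were at least 2-fold higher and 2.81% lower. Dcc, a netrin receptor, had 19 UMIs in metastasis and 10 UMIs in naive, or a log2 ratio of 1.04 (-0.13 to 2.31). Vldlr, a reelin receptor, had 6 UMIs in metastasis and 18 UMIs in naive, or a log2 ratio of -1.47 (-3.09 to -0.07), and was below free RNA. Epha4, an ephrin receptor, was at 149 CPM in metastasis neuroblasts and 161 CPM in naive ones. Robo2, a Slit receptor, had 14 UMIs in metastasis and 27 UMIs in naive, or a log2 ratio of -0.83 (-1.87 to 0.15).

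Of 14 measured genes of maturing olfactory interneurons and synapses, 3 were at least 2-fold higher and 1 at least 2-fold lower in metastasis neuroblasts, and the median was 0.08. Over all tested genes the shares were 2.85% and 2.81%. Pcp4, a calmodulin-binding gene, had 39 UMIs in metastasis and 11 UMIs in naive, or a log2 ratio of 1.94 (0.95 to 3.06). Pcp4l1, its relative, had 9 UMIs and 39 UMIs, a log2 ratio of -2.0 (-3.23 to -0.93), and stood below free RNA in both libraries. Snhg11, a noncoding RNA of neurons, had 48 UMIs in 2.02% of metastasis cells and 23 UMIs in 2.83% of naive cells. A single metastasis cell held 40 of the 48 UMIs and a single naive cell 11 of the 23, and without both the log2 ratio was -0.45 (-1.94 to 0.96).

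Interferon response genes were low in neuroblasts of both libraries. Only 4 of the 30 genes had at least 20 UMIs, of which 2 were at least 2-fold higher in metastasis, none at least 2-fold lower, and the median was 1.06. Of all tested genes, 2.85% were at least 2-fold higher and 2.81% lower. The whole list was 872 CPM in metastasis neuroblasts and 342 CPM in naive neuroblasts, against 2954 CPM and 1055 CPM in the other kept barcodes. The log2 ratio of the sums was 1.35 (1.07 to 1.63) in neuroblasts, 1.48 in the other kept barcodes and 1.43 in free RNA. Ifitm3, a membrane protein that restricts viruses, was at 225 CPM in metastasis neuroblasts and 81.7 CPM in naive neuroblasts, below its 938 CPM and 413 CPM in free RNA. Bst2, which tethers viruses at the cell surface, had 27 UMIs in metastasis and 5 UMIs in naive, or a log2 ratio of 2.55 (1.15 to 4.28), also below free RNA.

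MHC class I genes, which present peptides to T cells, showed the same arrangement. Of 17 genes 5 were measured, 3 were at least 2-fold higher in metastasis and none at least 2-fold lower, with a median of 1.98. The shares of all tested genes were 2.85% higher and 2.81% lower. B2m, the light chain of MHC class I, was at 197 CPM in metastasis neuroblasts and 39.8 CPM in naive neuroblasts, a log2 ratio of 2.31 (1.56 to 3.13). A single metastasis cell held 23 of its 82 UMIs there. Without the cell richest in B2m in each library the log2 ratio was 2.09 (1.25 to 3.01). In free RNA B2m was at 997 CPM in metastasis, against 114 CPM in naive. The heavy-chain genes H2-D1 and H2-K1 had log2 ratios of 2.10 (1.36 to 2.91) and 1.98 (1.19 to 2.85). They share sequence with other MHC genes, so their counts are uncertain.

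After thinning to 1000 UMIs, B2m was seen in 14.1% (7.95 to 22.6) of metastasis and 3.77% (1.04 to 9.38) of naive neuroblasts. Oligodendrocytes had 13.7% in metastasis and 4.45% in naive, both inside the interval of the neuroblasts of the same library. The log2 ratio of the summed MHC class I list was 1.53 (1.24 to 1.83) in neuroblasts, against 1.78 in oligodendrocytes, 1.16 in astrocytes, 2.99 in ependymal cells and 2.61 in free RNA. A single metastasis neuroblast held 56 of the list's 359 UMIs. Without the richest neuroblast of each library the log2 ratio was 1.40 (1.09 to 1.71). With free RNA subtracted at the fraction that brings markers of other cells to 0 in the median, the list's median was 0.90, and with free RNA taken from barcodes of 100 to 300 UMIs it was 0.20. Values that the subtraction left under 3 UMIs were set to 3 UMIs.

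**Figure D3:**
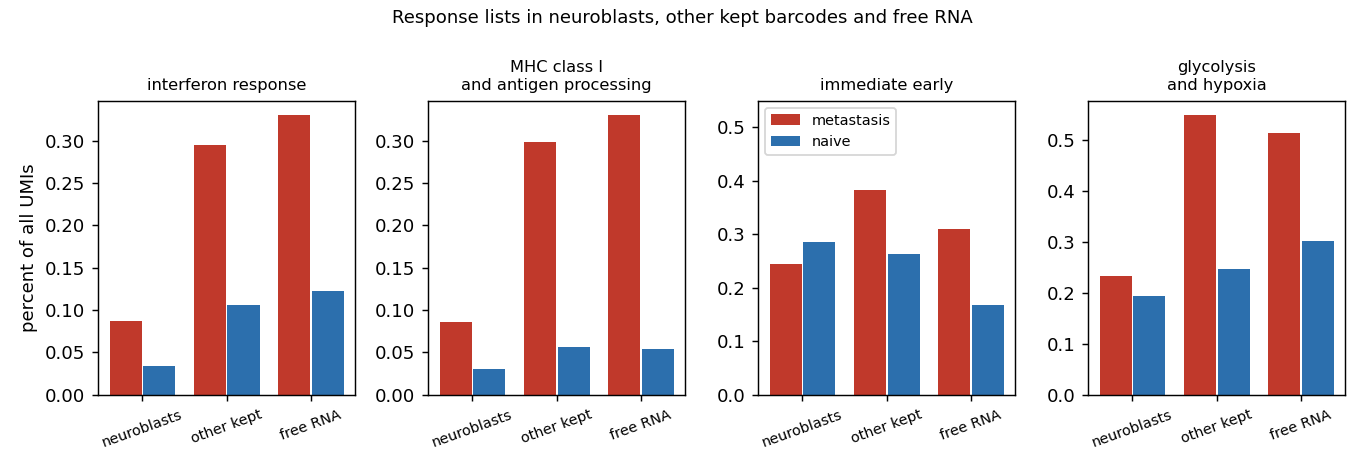
Percent of all UMIs from 4 response lists in neuroblasts, other kept barcodes and free RNA of metastasis (red, left) and naive (blue, right), each panel with its own axis from 0. Interferon and MHC class I lists are lower in neuroblasts than in free RNA in both libraries, and the immediate early list is lower in metastasis than in naive neuroblasts while it is higher in the other kept barcodes. A single naive cell holds 167 of the 1292 immediate early UMIs of naive neuroblasts.

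Immediate early genes, which many cells induce during dissociation, did not follow the rest of the library. They were 0.245% of UMIs in metastasis neuroblasts and 0.285% in naive neuroblasts, a log2 ratio of the sums of -0.22 (-0.34 to -0.10). A single naive cell held 167 of the 1292 naive UMIs, and without it the log2 ratio was -0.05 (-0.17 to 0.07). Without the richest cell of each library the log2 ratio was -0.13 (-0.25 to -0.001). The median was 7 UMIs a cell in both libraries. In the other kept barcodes they were 0.383% in metastasis and 0.262% in naive, a log2 ratio of 0.55. Of 11 measured genes 2 were at least 2-fold lower in metastasis neuroblasts and none at least 2-fold higher, and 2 had a log2 ratio above 0. Among all tested genes, 2.81% were at least 2-fold lower and 2.85% higher. Ier2 had 27 UMIs in metastasis and 66 UMIs in naive, or a log2 ratio of -1.17 (-1.87 to -0.51), with 26 of the 66 in 1 cell. Klf2 had 8 UMIs and 24 UMIs, a log2 ratio of -1.47 (-2.83 to -0.26), with 11 of the 24 in 1 cell. Without the cell richest in the gene in each library, the log2 ratio was -0.64 (-1.43 to 0.13) for Ier2. Jund, a subunit of the AP-1 factor, was at 336 CPM in metastasis neuroblasts and 508 CPM in naive ones, a log2 ratio of -0.60 (-0.91 to -0.29). Unlike the list, Jund was also lower in the other kept barcodes of metastasis, at 490 CPM against 594 CPM in those of naive.

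Metabolic and stress lists differed by small amounts. Over all tested genes, 2.85% were at least 2-fold higher and 2.81% lower in metastasis neuroblasts. Glycolysis and hypoxia genes summed to 0.234% of UMIs in metastasis and 0.194% in naive neuroblasts, a log2 ratio of 0.27 (0.14 to 0.40), against 1.16 in the other kept barcodes. Of 16 measured, 12 had a log2 ratio above 0, 1 was at least 2-fold higher and 1 at least 2-fold lower. Gapdh was at 532 CPM in metastasis neuroblasts and 457 CPM in naive ones. Heat shock genes had a median log2 ratio of 0.25, with 1 of 11 at least 2-fold higher, the inducible chaperone Hspa1a, with 37 UMIs in metastasis and 18 UMIs in naive. The log2 ratio of Hspa1a was 1.16 (0.31 to 2.06), with 10 of the 37 UMIs in 1 cell. Without the cell richest in it in each library it was 0.97 (0.01 to 1.99), under 2-fold. Of 10 p53 and apoptosis genes none reached 2-fold, and Bax, which permeabilises mitochondria, was at 228 CPM in metastasis neuroblasts and 247 CPM in naive ones.

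Receptors for factors of the tumour niche were measured in 8 of 18 cases, with none at 2-fold and a median of 0.44. The growth factor receptor gene Igf1r was at 110 CPM in metastasis neuroblasts and 117 CPM in naive ones. The BMP receptor gene Bmpr2 was at 127 CPM and 94.97 CPM, a log2 ratio of 0.42 (-0.19 to 1.03).

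Markers of other cells were present in the neuroblasts at levels that differed between lists. The choroid plexus list was the highest, at 0.483% of UMIs in metastasis and 3.03% in naive neuroblasts, or 2.02% in naive without the cell rich in Ttr, against 8.33% and 22.6% of free RNA. Astrocyte markers were 0.0803% in metastasis and 0.0996% in naive neuroblasts, against 0.0701% and 0.113% of free RNA. Microglia and macrophage markers summed to 526 UMIs in metastasis neuroblasts, 141 of them in 1 cell, and 111 UMIs in naive neuroblasts, 55 of them in 1 cell. Of 6 measured, 5 were at least 2-fold higher in metastasis, against 2.85% of all tested genes. The whole list was 0.126% and 0.0245% of neuroblast UMIs and 0.477% and 0.119% of free RNA. C1qa, a complement gene of microglia, was at 463 CPM in metastasis neuroblasts and 39.8 CPM in naive neuroblasts, against 1483 CPM and 254 CPM in free RNA. A single metastasis cell held 63 of its 193 UMIs and a single naive cell 10 of its 18. The log2 ratio was 3.54 (2.84 to 4.33) with both cells and 4.15 (3.12 to 5.39) without them. Oligodendrocyte markers were 0.213% of UMIs in metastasis and 0.296% in naive neuroblasts, and melanoma markers 0.0388% and 0.00199%. All of these lists except the astrocyte list in metastasis were below their share of free RNA. Of 10 lists of other cell types, at least 1 reached 1% of UMIs in 23 metastasis and 67 naive neuroblasts, and in 8 and 10 with the choroid plexus list set aside. For the oligodendrocyte, astrocyte, ependymal, microglia, endothelial and T and NK cell lists the numbers were 8 in metastasis and 9 in naive. Without these the share with 2 or more proliferation UMIs was 71.4% in metastasis and 64.9% in naive.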

How the data were processed

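RNA of single cells was counted from 10x Genomics 3′ v3 libraries, as the labels' protocols state. The authors deposited raw UMI counts for every gene in every barcode. STARsolo and the GRCm38 build are named in the submitters' processing notes; version and settings are not given in the sources used here. GENCODE M21 supplied coordinates and held 54349 of the 55401 gene identifiers with the same version. Counts of neuroblasts were summed per library and divided by their total (CPM). A gene was tested with at least 20 UMIs and called at 2-fold. A sum of 0, or one under 3 UMIs after free RNA was subtracted, was set to a floor of 3 UMIs. Intervals at 95% were exact conditional binomial for ratios and Clopper-Pearson for shares. Only the ratio intervals were checked, on simulated Poisson counts. Such counts follow the model that the interval assumes, so the check does not cover UMIs clumped in single cells. Oligodendrocytes had at least 10 UMIs and 0.5% of UMIs of their own markers. Doublets stayed in; scrublet (scanpy 1.11.5) called 405 barcodes in metastasis, none a neuroblast, and 889 in naive, 12 of them neuroblasts. Named genes were the 6 rule genes, the 20 leading over other barcodes (3 of them are not reported here), the 12 highest and 12 lowest between libraries, and the most abundant or most different members of each list; others were chosen after their values were seen, including those of the lineage groups. The members and lists were chosen with earlier results of these data known. Depth limits precision: 99 and 106 cells with 417254 and 452778 UMIs. Python 3.11.15, numpy 2.4.6 and scipy 1.17.1 were used.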

Additional observations from a re-analysis of the deposited data

How the results depend on the processing

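No paired analysis was possible because each group is 1 library, and no replicate could be left out. A stricter rule (10 UMIs and 0.30%) gave shares of neuroblasts of 0.378% in metastasis and 0.372% in naive, 104 genes at least 2-fold lower and an interferon median of 1.95 from 2 genes. Cells with a Dlx UMI alone were 0.480% and 0.529%. The counts of genes at least 2-fold higher and lower were 526 and 598 at a minimum of 10 UMIs, 36 and 25 at 50 UMIs, and 87 and 89 with 10 CPM added. Subtracting free RNA gave 355 lower genes, an interferon median of 2.16 and an MHC class I median of 0.90. With free RNA measured at 100 to 300 UMIs these were 316 lower genes, 0.87 for interferon and 0.20 for MHC class I. Values that either subtraction left under 3 UMIs were set to the floor of 3 UMIs. The counts of lower genes and the medians, which cover few genes, can therefore rest on that floor. At 10 UMIs a gene the medians were 1.46 for interferon and 1.49 for MHC class I. The interferon median was 1.39 without called doublets and 1.49 without the 6% of barcodes with the highest doublet scores, chosen after seeing the data. Shares with 2 or more proliferation UMIs were 55.6% in metastasis and 50.9% in naive after thinning, and 78.8% in metastasis at 1 or more. With the stricter rule Ccnd1 turned to -1.04 on 18 UMIs and Bod1l to -0.042, Ptbp2 went to -0.09, and with Dlx cells alone Cpe turned to 0.011. With each barcode weighted equally Btg1 went to -1.10. The cause was not tested for these. Without the naive barcode richest in choroid plexus UMIs, also chosen after seeing the data, 179 genes were at least 2-fold higher and 200 lower. Leaving out the cell richest in a gene or list was chosen after seeing the data as well. Of 384 values of the 24 extreme genes, 379 stayed within the counting interval. Changing the minimum UMIs of a gene cannot move such a value, so part of that count was fixed in advance. With 99 and 106 cells, genes under 20 UMIs could not be compared.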
